A study of Mus musculus with 23 samples.

Results

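The wound rim of wild-type mouse ears was compared between 24 h and 2 h after punching. The members were the 3 arrays titled as control tissue at 24 h and the 3 arrays titled as control tissue at 2 h, 6 of the 23 arrays of the series, and every difference is 24 h minus 2 h. RNA of ear pinna from 4-week-old mice was measured on single-colour expression arrays, and each array was labelled as a biological replicate. Each wounded ear had received a 2-mm punch hole, and the sample was the 1-mm ring left when a 3-mm biopsy was cut around that hole. Both groups, at 24 h and at 2 h, were C57BL/6J mice of genotype Rhbdf2+/+ with an ear punch. Levels at 15 min in punched ears and at 0 h in ears labelled as control, 3 arrays each of the same strain, genotype and age, are given for orientation. How large the 0 h piece was is not stated. The same step was also read in 3 arrays at 24 h and 3 at 2 h from punched ears of 4-week-old Rhbdf2cub/cub mice of strain B6.Cg-Rhbdf2cub/J, called cub. The Rhbdf2 product, iRhom2, is a catalytically inactive rhomboid needed for the maturation of ADAM17, the protease that releases EGFR ligands and TNF from cell surfaces, and cub is a mutant allele of it.

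A skin wound first switches on immediate early genes, transcription factors and signal regulators that need no new protein for their induction. Cytokines and chemokines from the injured tissue then recruit neutrophils and afterwards monocytes, while keratinocytes at the edge change their keratins, loosen their contacts and prepare to migrate and divide. The ear pinna has skin on both faces around a plate of elastic cartilage, with muscle, fat, nerves and sebaceous glands in between. All of these were sampled together in the rim.

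Values were log2 RMA values, in which a difference of 1 is a doubling of signal. Of 19938 genes tested with limma at an adjusted p under 0.05, 8284 passed, or 41.5%. They split into 4209 genes that rose (21.1%) and 4075 that fell (20.4%). At least 2-fold changes in signal were made by 478 genes that rose (2.4%) and 264 that fell (1.32%). The arrays of the groups did not overlap for 9614 genes (48.2%), and 7966 genes (40%) both passed and did not overlap. Against unwounded ears at 0 h, 7.97% of genes passed at 2 h and 42.8% at 24 h. The median change over all genes was -0.02, and the middle of the distribution was narrow, with 5th and 95th percentiles of -0.61 and 0.68. The counts of each gene group below are read against the shares that rose and fell over all genes. Most genes named below were picked for large changes, so arrays without overlap add no further support for them. Replicate arrays correlated at 0.996 to 0.998 at 24 h and at 0.997 to 0.998 at 2 h. For the labelled tissue, epidermal keratin and junction genes, skeletal muscle genes and cartilage genes were all measured at mean log2 levels above the array medians of 6.37 to 6.46. For 18 epidermal genes this mean was 11.64 to 11.77 at 24 h and 11.70 to 11.75 at 2 h. For 26 muscle genes it was 9.64 to 9.99 at 24 h and 10.31 to 10.68 at 2 h, and for 18 cartilage genes 7.73 to 7.89 at 24 h and 8.43 to 8.47 at 2 h. Detection calls were not used here. For 38 of the 201 genes named by rule, at least 1 of the groups averaged under 6, which is below every array median, and such a level was not shown to be above background. A fold or difference against it is a ratio of deposited signals only, and no limit on the ratio of RNA. Among others this held at 2 h for Arg1, Chil3, Clec4d, Csta3, Cxcl3, Defb3, Il24, Mmp1b and Ms4a4c. It also held at 2 h for Nppb, Osm, Saa3, Sprr2h, Stfa3, Traf1, Trem1 and Tslp. At 24 h it held for Akr1c14, Angptl1, Cd4, Cdh19, Mrgprb2, Mrgprb3, Mstn and Retnla. The limit applies below also where it is not repeated.

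**Figure D1:**
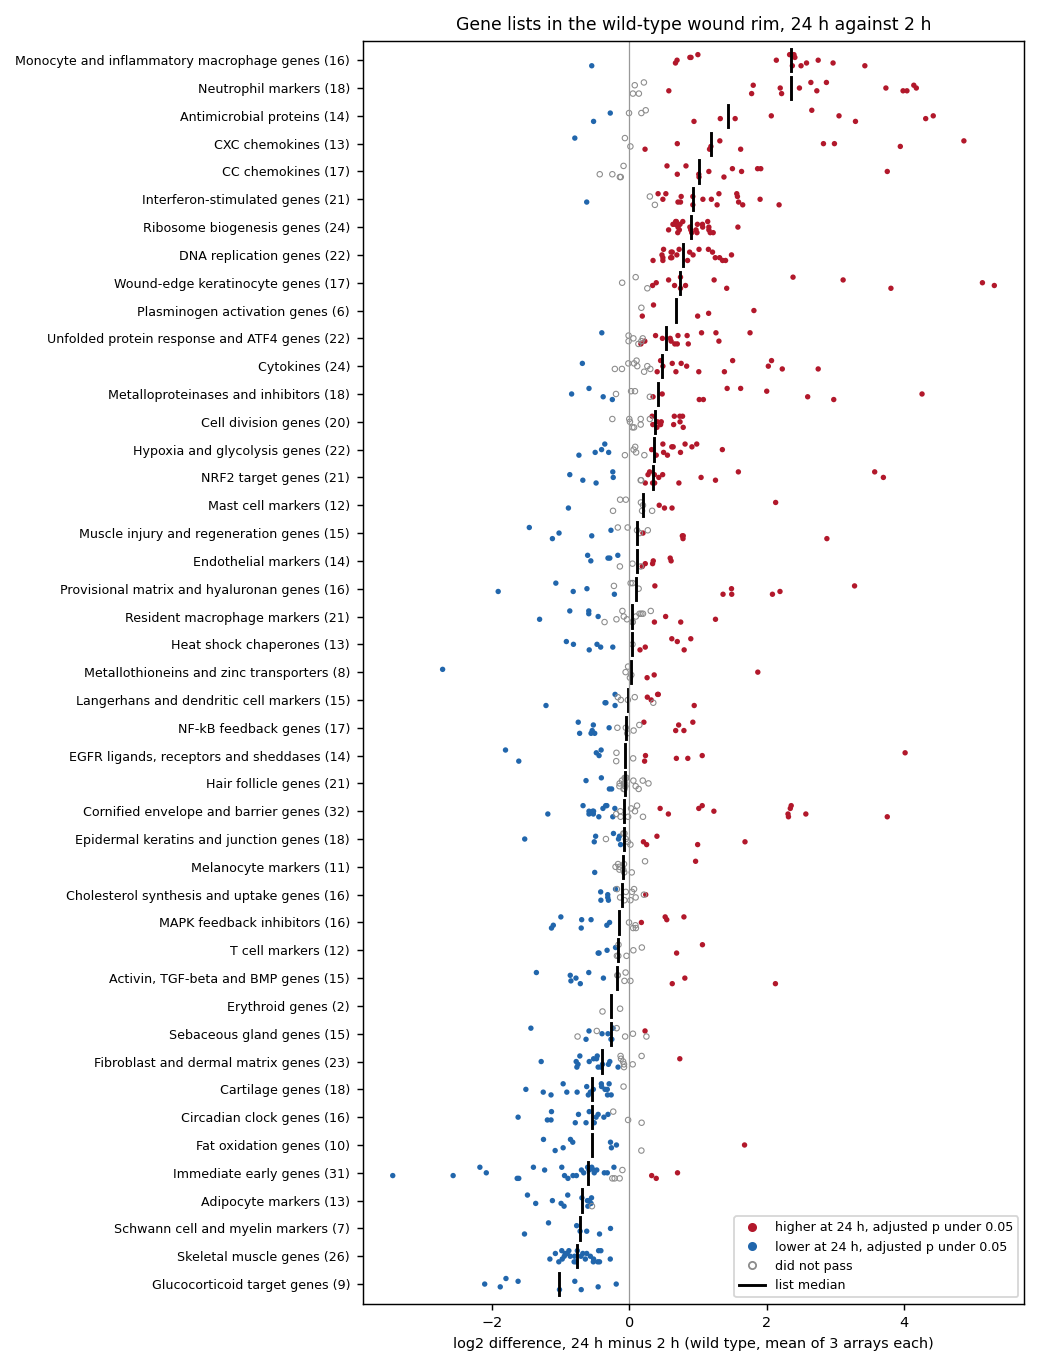
Each point is a tested gene of one of 45 lists, placed by its log2 difference at 24 h minus 2 h in wild-type wound rims (mean of 3 arrays each). Filled points passed an adjusted p of 0.05, open points did not, bars are list medians, and the number of genes tested stands in parentheses. Neutrophil and monocyte genes lie furthest to the right with medians of 2.35, and glucocorticoid targets furthest to the left with a median of -1.02.

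Some of the groups that rose have promoters whose regulatory motifs are textbook cases, and 1 promoter of each of 4 such groups is shown to give the sequence behind the named gene. The windows run from 250 bases before to 50 bases after the RefSeq transcript start in GRCm38.p6, and 27025 genes had such a window. Both strands were searched, and capitals mark the motif. The first is Mmp13, collagenase 3, at chr9:7272264-7272563 on the + strand, with the AP-1 motif TGANTCA. The second is Cxcl2, a neutrophil chemokine, at chr5:90903649-90903948 on the + strand, where the capitals mark overlapping matches to the NF-kB consensus, 1 on each strand. The third is Rsad2, the antiviral protein viperin, at chr12:26456403-26456702 on the - strand, with the interferon-stimulated response element TTTCNNTTTC. The fourth is Mcm3, a subunit of the replicative helicase, at chr1:20820263-20820562 on the - strand, with a match to each of the E2F motifs TTTCCCGC, here on the opposite strand, and TTTGGCGC. Sequences run 5′ to 3′ along the gene.
Mmp13: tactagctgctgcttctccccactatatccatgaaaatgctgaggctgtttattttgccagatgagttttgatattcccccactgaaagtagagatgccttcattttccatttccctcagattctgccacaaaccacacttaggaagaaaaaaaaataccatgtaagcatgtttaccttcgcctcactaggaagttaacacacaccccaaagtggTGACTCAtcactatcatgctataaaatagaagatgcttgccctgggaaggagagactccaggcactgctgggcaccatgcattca
Cxcl2: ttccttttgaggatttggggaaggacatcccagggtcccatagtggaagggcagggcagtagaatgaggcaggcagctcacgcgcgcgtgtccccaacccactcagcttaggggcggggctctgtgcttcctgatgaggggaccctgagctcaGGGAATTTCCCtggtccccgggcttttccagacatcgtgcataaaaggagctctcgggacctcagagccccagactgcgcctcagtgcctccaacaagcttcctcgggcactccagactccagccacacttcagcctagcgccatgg
Rsad2: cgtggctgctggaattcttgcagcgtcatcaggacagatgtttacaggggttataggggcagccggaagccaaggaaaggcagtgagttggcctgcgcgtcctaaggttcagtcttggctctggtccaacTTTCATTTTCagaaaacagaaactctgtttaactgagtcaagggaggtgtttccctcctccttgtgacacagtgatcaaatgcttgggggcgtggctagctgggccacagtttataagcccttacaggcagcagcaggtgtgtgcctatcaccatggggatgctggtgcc
Mcm3: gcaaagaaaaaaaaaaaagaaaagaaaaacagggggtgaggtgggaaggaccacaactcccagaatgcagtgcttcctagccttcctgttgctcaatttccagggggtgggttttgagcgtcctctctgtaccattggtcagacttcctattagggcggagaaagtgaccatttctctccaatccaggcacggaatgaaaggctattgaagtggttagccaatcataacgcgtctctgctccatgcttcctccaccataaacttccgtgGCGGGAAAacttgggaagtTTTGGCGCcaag
The AP-1 motif was present in the windows of 8.97% of all genes, and in those of 6 of the 13 metalloproteinase list genes with a window and of all 3 plasminogen activation genes with a window. The NF-kB consensus was present for 5.14% of all genes and 4 of 10 CXC chemokines. The interferon element was present for 3.99% of all genes and 10 of 17 interferon-stimulated genes. The E2F motifs were present for 1.8% of all genes and 8 of 18 DNA replication genes. These are matches of letters only, and occupancy was not measured.

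The immediate early genes fell as a group. Of 31 tested, 24 were lower at 24 h, 3 were higher and 4 did not pass, with a list median of -0.61 against -0.02 over all genes. Fosb, an AP-1 subunit, read 7.83, 7.78 and 8.51 at 24 h, against 11.67, 11.43 and 11.37 at 2 h, a difference of -3.45 ± 0.34 (SE, limma adjusted p = 3.17e-08) and the largest fall of any named gene. The groups were far apart, and the 24 h arrays lay within the range at 0 h, which was 7.19 to 9.05. Nr4a1, an orphan nuclear receptor, read 8.80, 9.09 and 9.67 at 24 h, against 11.93, 11.68 and 11.66 at 2 h, and fell by 2.57 (SE 0.29, limma adjusted p = 1.96e-07). Its relative Nr4a2 fell by 2.09 and the stress factor Atf3 by 2.18, both without overlap between the times.

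Several of these genes were lower at 24 h than at 2 h and still above the unwounded ear. Fos, the partner of Jun in AP-1, read 8.47, 8.63 and 8.77 at 24 h, against 10.21, 10.16 and 10.34 at 2 h, and fell by 1.61 (SE 0.26, limma adjusted p = 2.41e-05). Its 0 h mean was 7.16 ± 0.32 (SD, n = 3), so that 24 h minus 0 h was 1.46 (limma adjusted p = 7.18e-05). Egr1, a zinc-finger factor, read 10.29, 10.62 and 10.65 at 24 h, against 11.01, 11.02 and 11.07 at 2 h, and fell by 0.51 (limma adjusted p = 0.00557), while its 24 h level exceeded that at 0 h by 1.29. The members that rose were Ier5 by 0.70, Arc by 0.39 and Ier3 by 0.32, named here after their values were seen. The call of Arc was lost in 10 of 16 alternative settings, among them leaving out the third 24 h array or any 1 of the 2 h arrays, and its adjusted p reached 0.425.

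The regulators that dampen these signals moved both ways. Of 16 MAPK feedback inhibitors, 8 fell, 4 rose and 4 did not pass, with a median of -0.15. The phosphatase genes Dusp1 and Dusp8 fell by 1.14 and 1.11, and Spry1, a receptor tyrosine kinase antagonist, fell by 1.00. Dusp6, the phosphatase that acts on ERK, rose instead: it read 10.21, 10.76 and 10.96 at 24 h, against 9.80, 9.70 and 10.05 at 2 h, a difference of 0.79 ± 0.13 (SE, limma adjusted p = 4.67e-05). The others that rose were Dusp5, Spred3 and Spred1, by 0.54, 0.52 and 0.17, named after their values were seen. Of 17 NF-kB feedback genes, 7 fell and 5 rose, with a median of -0.05. Zfp36, which destabilises cytokine mRNAs, fell by 0.75 and Tnfaip3, the ubiquitin-editing enzyme A20, by 0.73, while Bcl3, an atypical IkB protein, rose by 0.92 and Traf1, an adaptor, by 0.79. The other members that rose were Nfkbid, Nfkbie and Nfkb2, by 0.72, 0.67 and 0.21.

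Glucocorticoid target genes and circadian clock genes fell together. All 9 glucocorticoid targets tested were lower at 24 h, with a median of -1.02, and 13 of 16 clock genes were lower and none higher, with a median of -0.55. Zbtb16, the transcription factor PLZF, read 8.07, 8.29 and 8.25 at 24 h, against 10.42, 10.25 and 10.27 at 2 h, a difference of -2.11 ± 0.07 (SE, limma adjusted p = 6.94e-15). Tsc22d3, which encodes the anti-inflammatory protein GILZ, read 8.09, 8.06 and 8.16 at 24 h, against 10.14, 10.05 and 9.77 at 2 h, and fell by 1.88. Neither gene had overlapping groups, and both ended below the unwounded ear, Zbtb16 by 1.14 and Tsc22d3 by 1.85.

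The position of the 2 h level differed among them. Zbtb16, Klf9 and Per1 were higher at 2 h than at 0 h, by 0.97, 0.80 and 0.83, whereas Tsc22d3 differed by 0.04 (limma adjusted p = 0.915). Klf9, a Krüppel-like factor, fell by 1.80 between the times and Per1, a core clock gene that glucocorticoids also induce, by 1.62. Per1 belongs to both lists. Among the other clock genes, Cry2, a repressor of the clock loop, read 8.39, 8.45 and 8.39 at 24 h, against 9.67, 9.52 and 9.63 at 2 h, Per3 fell by 1.14 and the output factor Hlf by 1.14. The labels do not state the hour of day at which tissue was taken, and its part in these falls was not tested.

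**Figure D2:**
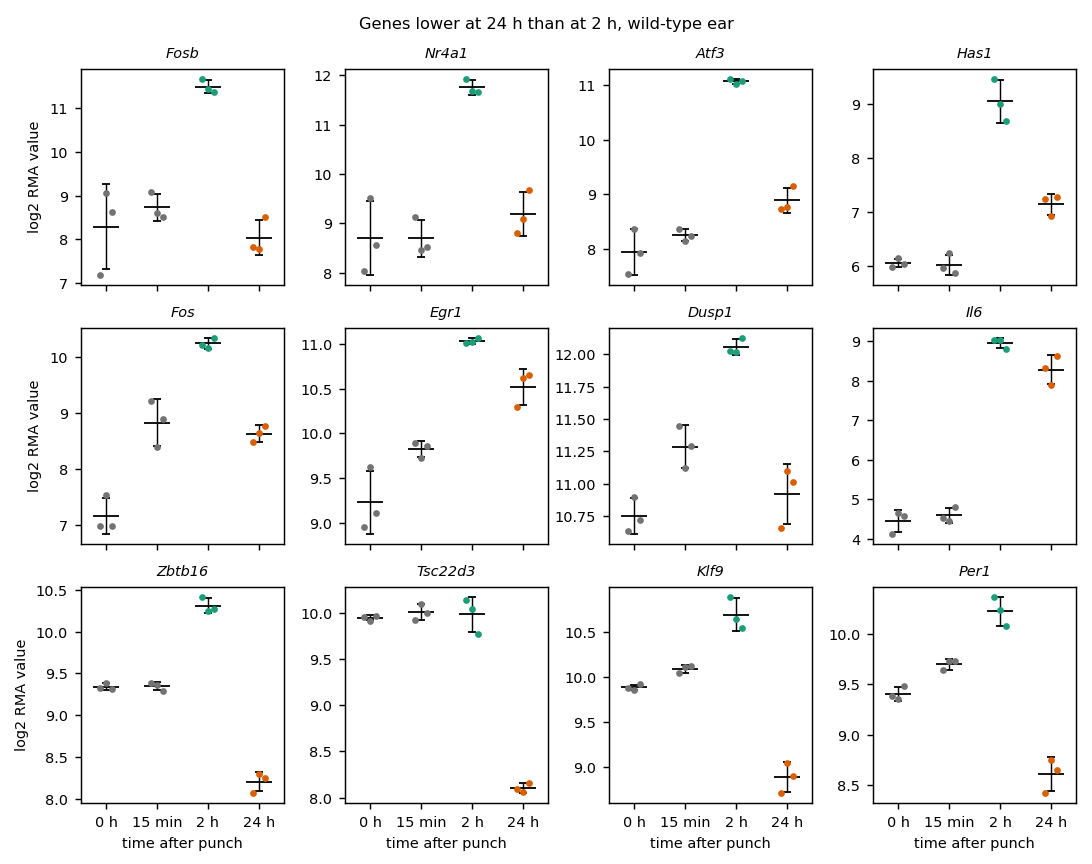
Log2 RMA values of 12 genes on each wild-type array at 0 h, 15 min, 2 h and 24 h after the punch (points, 3 arrays a time; 24 h in orange, 2 h in green), with the mean and SD in black. At 24 h Fosb, Nr4a1, Atf3, Has1, Fos, Egr1, Dusp1 and Il6 lie below 2 h, and Zbtb16, Tsc22d3, Klf9 and Per1 lie below both 2 h and 0 h.

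Most cytokine and chemokine genes rose. Of 24 cytokines, 14 rose, 1 fell and 9 did not pass, with a median of 0.47. Il1b, the main inflammasome product, read 11.59, 11.44 and 11.49 at 24 h, against 8.88, 8.81 and 8.58 at 2 h, a difference of 2.75 ± 0.24 (SE, limma adjusted p = 8.64e-09), and the 2 h arrays were already 3.15 above 0 h. Osm, a cytokine of the IL-6 family made by leukocytes, rose by 2.23, Tslp, an epithelial alarmin, by 2.07 and Il24, a cytokine of the IL-20 family, by 2.02. None of these 3 had overlapping groups. Il6 was the cytokine that fell: it read 8.31, 7.89 and 8.62 at 24 h, against 9.04, 9.03 and 8.81 at 2 h, a difference of -0.69 ± 0.22 (SE, limma adjusted p = 0.0144). Without the second 24 h array the adjusted p was 0.105. Both times remained above the unwounded ear, by 3.82 at 24 h and 4.51 at 2 h.

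Ligands of CXCR2, which recruit neutrophils, led this class. Of 13 CXC chemokines, 10 rose, 8 of them at least 2-fold, with a median of 1.19. Cxcl5 read 10.14, 9.73 and 9.73 at 24 h, against 5.04, 5.08 and 4.86 at 2 h, a signal 29.3-fold higher (limma adjusted p = 3.82e-18) against a 2 h level not shown to be above background. Its 2 h level differed from that at 0 h by 0.07 (limma adjusted p = 0.816). Cxcl2 read 11.31, 11.39 and 11.14 at 24 h, against 7.26, 7.72 and 7.02 at 2 h, and was 15.4-fold higher (limma adjusted p = 5.72e-11). At 2 h it was already 1.94 above 0 h (limma adjusted p = 1.72e-05). Cxcl3, another ligand of CXCR2, rose by 2.99 and the platelet chemokine gene Ppbp by 2.83. The 4 members with the NF-kB consensus in their windows, Cxcl1, Cxcl2, Cxcl3 and Cxcl10, all rose. Cxcl9, an interferon-gamma target named here after its values were seen, was the member called lower. It read 7.16, 6.92 and 6.69 at 24 h, against 7.12, 7.06 and 8.98 at 2 h. The third 2 h array stood apart and the groups overlapped. The difference was -0.80 (limma adjusted p = 0.0451), and without that array it was -0.17 (limma adjusted p = 0.467).

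Of 17 CC chemokines, 12 rose and none fell, with a median of 1.01, and 1 fell without the first 24 h array. Ccl3, which attracts monocytes and neutrophils, read 11.64, 11.61 and 11.31 at 24 h, against 7.54, 7.86 and 7.89 at 2 h, a difference of 3.76 ± 0.21 (SE, limma adjusted p = 1.09e-11). Ccl9 rose by 1.91, Ccl20, the CCR6 ligand made by keratinocytes, by 1.87, and Ccl19, a ligand of CCR7, by 1.63. The 5 that did not pass were Ccl1, Ccl11, Ccl17, Ccl24 and Ccl28.

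Neutrophil markers rose as well. Of 18 neutrophil markers, 14 rose and none fell, 13 of them at least 2-fold, with a median of 2.35. Their mean log2 level was 8.37 to 8.63 on the 24 h arrays, against 6.14 to 6.47 at 2 h and 5.71 to 5.78 at 0 h. Clec4e, the receptor Mincle, read 9.42, 9.58 and 9.24 at 24 h, against 5.38, 5.46 and 4.86 at 2 h, a signal 18.1-fold higher (limma adjusted p = 2.72e-15) against a 2 h level not shown to be above background. Trem1, which amplifies neutrophil and monocyte activation, rose by 4.14, S100a8, a subunit of calprotectin, by 4.04 and Clec4d by 3.99. The 4 markers that did not pass, named after their values were seen, were the decoy receptor gene Il1r2, with a difference of 0.14, and the granule protein genes Camp, Ngp and Ltf, which immature neutrophils of the marrow make, with differences of 0.08, 0.21 and 0.05. Ngp passed when only the arrays compared were fitted (limma adjusted p = 0.0212). Camp, Ngp and Ltf averaged under 6 at both 24 h and 2 h, levels not shown to be above background. Their small differences therefore do not show that the RNA of these genes was unchanged. In bulk tissue, more cells of a type and more RNA per cell cannot be told apart, and the same holds for fewer cells and less RNA.

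Of 16 monocyte and inflammatory macrophage genes, 15 rose and 1 fell, with a median of 2.35. Ms4a4c, a membrane protein gene of inflammatory monocytes, read 9.46, 8.98 and 8.38 at 24 h, against 5.38, 5.47 and 5.68 at 2 h, a difference of 3.43 ± 0.23 (SE, limma adjusted p = 1.23e-10). Saa3, an acute-phase protein, rose by 2.97, Cd14, the LPS co-receptor, by 2.75, the Fc receptor gene Fcgr1 by 2.58 and Chil3, a chitinase-like protein of myeloid cells, by 2.50. Arg1, arginase of alternatively activated macrophages and keratinocytes, read 7.08, 6.94 and 6.86 at 24 h, against 6.00, 6.02 and 5.87 at 2 h, and rose by 1.00 (limma adjusted p = 9.92e-05). The member that fell was Gpnmb, by 0.55, named after its values were seen. Outside the lists, Acod1, the myeloid enzyme that makes itaconate, rose by 4.46, and Csta3 and Stfa3, stefin A cysteine protease inhibitors of a family of near-identical copies, rose by 4.71 and 4.22. The array may not separate the copies, so the value of each is uncertain.

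Of 21 resident macrophage markers 4 rose, 5 fell and 12 did not pass, with a median of 0.04, and the 42.9% that passed were close to the 41.5% over all genes. Mrc1, the mannose receptor, read 10.08, 10.11 and 9.82 at 24 h, against 9.15, 8.98 and 8.12 at 2 h, and rose by 1.25, while Retnla, a marker of alternative activation, read 5.83, 5.04 and 4.76 at 24 h, against 6.68, 6.81 and 6.07 at 2 h, and fell by 1.31. The third 2 h array had the lowest mean of this list, 8.02, against 8.64 for the highest 2 h array. Of 15 Langerhans and dendritic cell markers 5 rose and 5 fell, and 3 fell without the third 24 h array or without the first 2 h array. Cd207, langerin, read 7.42, 7.23 and 7.20 at 24 h, against 8.41, 8.39 and 8.70 at 2 h, a difference of -1.22 ± 0.10 (SE, limma adjusted p = 1.83e-09), and Ccr7, the receptor that guides dendritic cells to lymph nodes, rose by 0.94.

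Of 12 mast cell markers, 4 rose, 1 fell and 7 did not pass, and the 41.7% that passed were close to the share over all genes. Their mean log2 level was 7.55, 7.55 and 7.29 at 24 h, against 7.41, 7.25 and 6.92 at 2 h, with the third 2 h array lowest, and without that array 2 fell. Hdc, histidine decarboxylase, also made by neutrophils, rose by 2.13, and Mrgprb2, the mast cell receptor for basic secretagogues, fell by 0.89. Its relative Mrgprb3 fell by 1.89. Of 12 T cell markers 2 rose and 4 fell: Cd3e and Cd4 fell by 0.44 and 0.46, and Il7r and Thy1, which other cells also express, rose by 1.06 and 0.69. Without the second or the third 24 h array 2 fell. Of 14 endothelial markers 6 rose, among them Eng by 0.61 and Plvap by 0.59, and 5 fell, among them Vwf by 0.61 and Cldn5 by 0.56. Without the first 24 h array 3 endothelial markers rose.

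Antimicrobial protein genes rose with the leukocyte markers. Of 14 tested, 9 rose, 8 of them at least 2-fold, and 2 fell, with a median of 1.43. Defb4, a beta-defensin of inflamed epithelium, read 9.06, 8.85 and 8.93 at 24 h, against 4.63, 4.45 and 4.48 at 2 h, a signal 21.5-fold higher (limma adjusted p = 2.53e-17) against a 2 h level not shown to be above background. Defb3 read 10.30, 9.23 and 9.06 at 24 h, against 5.31, 5.15 and 5.18 at 2 h, with the first 24 h array above the others. Lcn2, which sequesters bacterial siderophores, rose by 3.29 and Slpi, a leukocyte protease inhibitor, by 3.05. The members that fell were Defb1 by 0.52 and Defb6 by 0.28, both named after their values were seen, and Defb6 did not pass without the third 24 h array.

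Keratinocyte genes of the wound edge rose, and 2 of them made the largest increases named here. Of 17 tested, 14 rose, none fell and 3 did not pass, with a median of 0.74, and 1 fell without the third 24 h array. Krt6b read 12.93, 12.90 and 12.88 at 24 h, against 8.04, 7.31 and 7.41 at 2 h, which was 39.9-fold higher (limma adjusted p = 3.57e-09), the largest increase of any gene tested without overlap. Krt16, its type I partner, read 12.22, 12.21 and 12.47 at 24 h, against 7.07, 6.81 and 7.59 at 2 h, and was 35.3-fold higher (limma adjusted p = 5.28e-08). Neither had left the unwounded level at 2 h beyond the threshold, with 2 h minus 0 h at 0.46 (limma adjusted p = 0.678) for Krt6b and 0.96 (limma adjusted p = 0.328) for Krt16. Krt6a rose by 3.81 and the gap junction gene Gjb2 by 3.11. Krt17, which was bright at both times, read 12.74, 12.87 and 12.79 at 24 h, against 11.62, 11.50 and 11.58 at 2 h, and rose by 1.23. The gene 2610528A11Rik, for which no role is given here, rose by 4.94.

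The EGFR ligands, which drive keratinocyte migration and division, split. Of 14 genes for ligands, receptors and sheddases 6 rose, 5 fell and 3 did not pass. Areg, amphiregulin, another listed ligand, was not tested. Epgn, epigen, read 10.89, 11.03 and 11.35 at 24 h, against 6.89, 7.04 and 7.29 at 2 h, which was 16.2-fold higher (limma adjusted p = 7.03e-14), and Tgfa rose by 1.06. Btc, betacellulin, read 6.27, 6.54 and 6.43 at 24 h, against 7.98, 8.15 and 8.53 at 2 h, and fell by 1.81, and Ereg, epiregulin, read 7.22, 7.12 and 7.46 at 24 h, against 8.78, 8.76 and 9.10 at 2 h, and fell by 1.61. For all 4 ligands, named for the largest changes of their list, the arrays of the groups did not overlap, as for 48.2% of all genes. Rhbdf2 itself read 8.57, 8.85 and 9.01 at 24 h, against 9.03, 8.95 and 9.02 at 2 h, and the difference of -0.19 ± 0.09 (SE) did not pass (limma adjusted p = 0.0931). It passed without the third 24 h array, at -0.29 (limma adjusted p = 0.0109), and with quantile normalization, at -0.24 (limma adjusted p = 0.0183).

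Genes of the epidermal barrier moved both ways. Of 32 cornified envelope and barrier genes 11 rose, 9 of them at least 2-fold, 13 fell and 8 did not pass, with a median of -0.07. The small proline-rich genes Sprr2d, Sprr2h and Sprr1b, cross-linked into the cornified envelope under stress, rose by 3.76, 2.57 and 2.36, and the protease gene Klk6 by 2.34. Members of the Sprr family are alike in sequence, so the array may not separate them. Of 18 epidermal keratins and junction genes 5 rose and 7 fell. Krt15, a keratin of basal and follicle stem cells, read 10.18, 10.56 and 10.33 at 24 h, against 11.88, 11.91 and 11.86 at 2 h, a difference of -1.53 ± 0.12 (SE, limma adjusted p = 1.7e-09), and the desmosomal cadherin genes Dsc2 and Dsg3 rose by 1.68 and 0.99.

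Several genes with the deepest falls are known from resting epidermis. Mt4, the metallothionein of stratified epithelium, read 9.36, 9.23 and 8.99 at 24 h, against 11.88, 11.89 and 11.98 at 2 h, which was 6.6-fold lower at 24 h (limma adjusted p = 3.02e-14). Alox12e, an epidermal lipoxygenase, fell by 2.62, and Skint4, of a family that selects intraepithelial T cells, fell by 2.14. Neither these 3 nor Sema3d, a secreted semaphorin that fell by 2.36, had changed past the threshold between 0 h and 2 h. Among the 15 deepest falls were also Inmt, a methyltransferase, which fell by 2.29, Angptl1, an angiopoietin-like protein, which fell by 2.01, and Akr1c14, a hydroxysteroid dehydrogenase, which fell by 1.92.

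**Figure D3:**
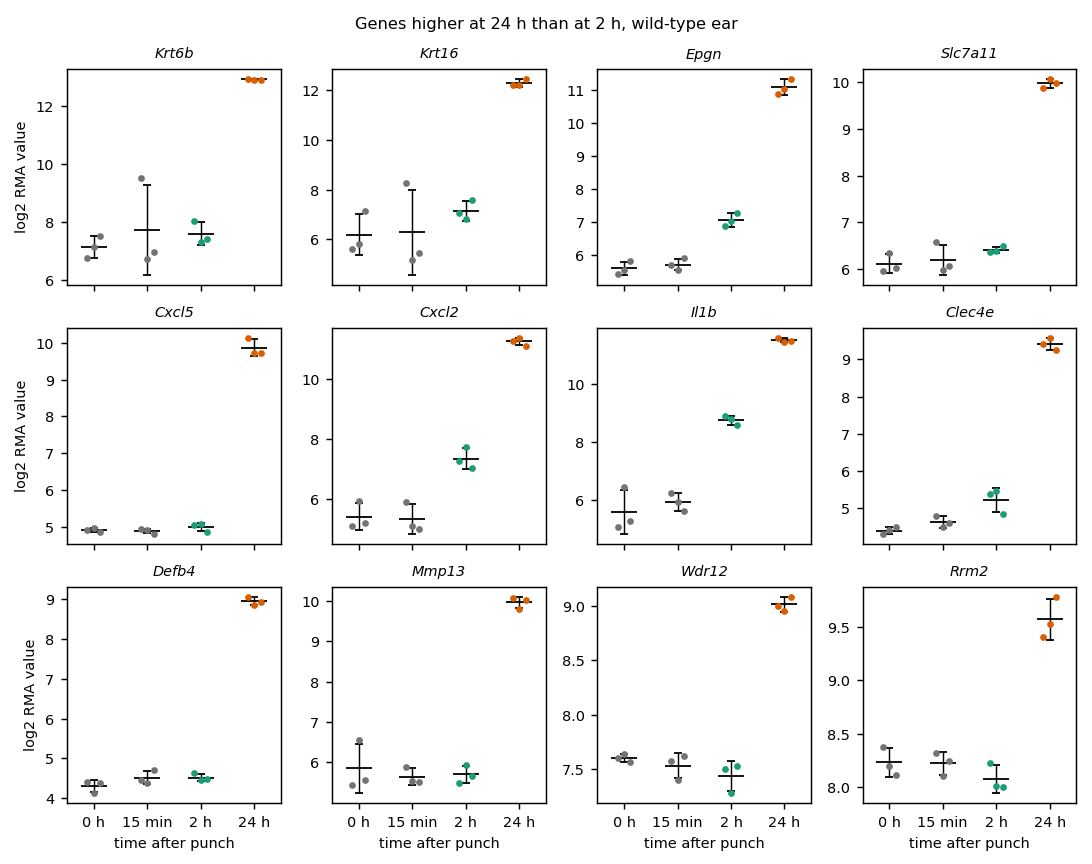
Log2 RMA values of 12 genes on each wild-type array at 0 h, 15 min, 2 h and 24 h after the punch (points, 3 arrays a time; 24 h in orange, 2 h in green), with the mean and SD in black. All 12 are higher at 24 h than at 2 h without overlap, and Epgn, Cxcl2, Il1b and Clec4e are already above 0 h at 2 h.

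Genes for matrix-degrading proteases rose while those of the resting dermal matrix fell. Of 18 metalloproteinases and inhibitors, 10 rose, 8 of them at least 2-fold, and 4 fell, with a median of 0.41. Mmp13, whose promoter is given above, read 10.07, 9.80 and 10.02 at 24 h, against 5.50, 5.93 and 5.67 at 2 h, a signal 19.2-fold higher (limma adjusted p = 9.67e-13) against a 2 h level not shown to be above background. Timp1, an inhibitor of these enzymes, rose by 2.98, the collagenase gene Mmp1b by 2.60 and Mmp3, stromelysin 1, by 2.00. Of the 6 metalloproteinase genes with the AP-1 motif, 5 rose, against 10 of 18 in the whole list and 21.1% over all genes. The other, Mmp12, did not pass, with a difference of 0.30. The part of the motif in these rises was not tested. In the plasminogen system 5 of 6 genes rose, led by Plaur, the urokinase receptor, which read 10.09, 10.12 and 10.03 at 24 h, against 8.29, 8.26 and 8.25 at 2 h, and rose by 1.81. Plau, urokinase itself, rose by 1.15 and Plat, the tissue-type activator, by 0.99. Serpinb2, whose window also held the AP-1 motif, did not pass, with a difference of 0.17 (limma adjusted p = 0.072).

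Of 23 fibroblast and dermal matrix genes 15 fell, 1 rose and 7 did not pass, with a median of -0.39. Col1a1, the main fibrillar collagen chain, read 10.52, 10.89 and 10.87 at 24 h, against 11.49, 11.65 and 11.44 at 2 h, a difference of -0.77 ± 0.10 (SE, limma adjusted p = 1.8e-06). Ogn, a small leucine-rich proteoglycan, fell by 1.29, Eln, elastin, by 0.78 and Col1a2 by 0.75. The member that rose was Col12a1, by 0.73, named after its values were seen. Of 16 provisional matrix and hyaluronan genes 7 rose and 5 fell. Tnc, tenascin C, rose by 2.19 and Vcan, versican, by 2.08.

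Has3 and Has1, which synthesise hyaluronan, moved in opposite directions. Has3 read 8.64, 9.08 and 9.22 at 24 h, against 5.60, 5.69 and 5.81 at 2 h, a signal 9.71-fold higher (limma adjusted p = 5.33e-15) against a 2 h level not shown to be above background. Has1 averaged 7.14 ± 0.19 at 24 h and 9.06 ± 0.40 at 2 h (SD, n = 3 each) and fell by 1.91 (limma adjusted p = 4.12e-08), with the 24 h level still 1.09 above 0 h. Neither gene had overlapping groups. In the TGF-beta superfamily 3 of 15 genes rose and 7 fell, with a median of -0.18. Inhba, the activin A subunit, read 8.55, 8.64 and 8.67 at 24 h, against 6.59, 6.57 and 6.32 at 2 h, and was 4.37-fold higher (limma adjusted p = 2.23e-11), while Tgfb3, Tgfb2 and Bmp4 fell by 1.36, 0.86 and 0.85. The other members that rose were Tgfb1 by 0.81 and Fst, the activin antagonist follistatin, by 0.62, named after their values were seen.

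Growth genes rose as whole groups. All 24 ribosome biogenesis genes rose, by 0.57 to 1.58 with a median of 0.90, and all 22 DNA replication genes rose, by 0.34 to 1.49 with a median of 0.79. The DNA replication genes thus rose both with and without an E2F motif in their windows. Wdr12, a processing factor of the large ribosomal subunit, averaged 9.02 ± 0.07 at 24 h and 7.44 ± 0.14 at 2 h (SD, n = 3 each), a difference of 1.58 ± 0.10 (SE, limma adjusted p = 6.62e-11). Dkc1, the pseudouridine synthase dyskerin, rose by 1.22, Nop56 by 1.18 and Mybbp1a by 1.16. Rrm2, the regulated subunit of ribonucleotide reductase, averaged 9.57 ± 0.19 at 24 h and 8.08 ± 0.13 at 2 h (SD, n = 3 each), and rose by 1.49 (limma adjusted p = 1.48e-08). Gins1, Mcm2 and Mcm3, parts of the replicative helicase, rose by 1.40, 1.36 and 1.31.

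Genes of mitosis rose in part. Of 20 cell division genes 12 rose, none fell and 8 did not pass, with a median of 0.37 and no member at 2-fold. Aurka, a mitotic kinase, rose by 0.78, Plk1 by 0.77, Bub1 by 0.74 and Cdk1 by 0.73. Mki67, the common proliferation marker, read 9.34, 9.07 and 9.50 at 24 h, against 9.27, 9.33 and 9.18 at 2 h. Its groups overlapped, and the difference of 0.04 ± 0.14 (SE) did not pass (limma adjusted p = 0.854).

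Stress and metabolic programmes were mixed. Of 22 unfolded protein response and ATF4 genes 15 rose and 1 fell, with a median of 0.54. Mthfd2, a mitochondrial folate enzyme, rose by 1.76, Sdf2l1, an ER protein, by 1.30, Asns, asparagine synthetase, by 1.26 and the ER chaperone gene Creld2 by 1.05. Of 22 hypoxia and glycolysis genes 12 rose and 5 fell, or 3 without the third 24 h array, with a median of 0.36. Slc16a3, the lactate exporter, rose by 1.35, Adm, adrenomedullin, by 0.98, and the glycolytic enzyme genes Pgk1 and Pgam1 by 0.91 and 0.81. Of 13 heat shock chaperones 6 rose and 6 fell: the mitochondrial pair Hspd1 and Hspe1 rose by 0.89 and 0.80, and Hspb8 and Dnajb4 fell by 0.92 and 0.82.

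NRF2, the transcription factor that the study's title links to RHBDF2, has targets in antioxidant and detoxifying metabolism. Of 21 such genes 14 rose, 5 fell and 2 did not pass, with a median of 0.34, and 5 rose at least 2-fold. Without the third 24 h array or the first 2 h array 3 fell. Gsta4, a glutathione transferase, read 11.84, 11.59 and 11.84 at 24 h, against 8.06, 7.99 and 8.12 at 2 h, a difference of 3.70 ± 0.09 (SE, limma adjusted p = 2.72e-17). Slc7a11, the cystine importer, read 9.89, 10.08 and 9.99 at 24 h, against 6.37, 6.38 and 6.49 at 2 h, and was 11.9-fold higher (limma adjusted p = 1.06e-13). Both moved further than any other member of the list, in which Gpx2 rose by 1.59, Hmox1, heme oxygenase 1, by 1.25 and Nqo1, a quinone reductase, by 0.72. Slc7a11 is also an ATF4 target. In a separate list of 8 metallothionein and zinc transporter genes 3 rose, 1 fell and 4 did not pass, with a median of 0.02. There the zinc importer gene Slc39a14 rose by 1.87 and Mt4 fell by 2.72.

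Of 21 interferon-stimulated genes 18 rose, 10 of them at least 2-fold, and 1 fell, with a median of 0.92. The 2 that did not pass, Oas1a and Gbp3, both had the interferon element in their windows. Their differences were 0.37 (limma adjusted p = 0.081) and 0.30 (limma adjusted p = 0.29). Rsad2 read 8.31, 8.33 and 7.68 at 24 h, against 5.74, 5.75 and 6.29 at 2 h, a signal 4.53-fold higher (limma adjusted p = 2.38e-07) against a 2 h mean under 6. Ifit3, Ifit1 and Oas2, antiviral effectors, rose by 1.90, 1.65 and 1.59. Arrays differed here: Ifit1 read 8.66, 8.21 and 7.88 at 24 h, against 6.41, 5.90 and 7.49 at 2 h, and the third 2 h array, which was also highest for Cxcl9 and Rsad2, lay nearest to the 24 h group. The mean log2 level of the list was 7.42 to 7.90 at 24 h and 6.49 to 6.97 at 2 h.

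Genes of the deeper tissues of the ear fell. All 26 skeletal muscle genes fell, by 0.28 to 1.16 with a median of -0.77, 17 of 18 cartilage genes fell with a median of -0.55, 12 of 13 adipocyte markers fell with a median of -0.69, and all 7 Schwann cell and myelin markers fell with a median of -0.72. None of these lists had a member that rose. Ttn, titin of the sarcomere, read 9.16, 8.75 and 8.86 at 24 h, against 9.71, 10.13 and 10.41 at 2 h, a difference of -1.16 ± 0.16 (SE, limma adjusted p = 5.29e-06). Ucma, a cartilage matrix protein, read 9.15, 8.74 and 8.38 at 24 h, against 10.34, 10.36 and 10.10 at 2 h, and fell by 1.51. Lep, leptin of fat cells, fell by 1.49, and Cdh19, a cadherin of Schwann cells, by 1.53. In each of these 4 genes, picked for large changes, the groups did not overlap, as for 48.2% of all genes.

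In the means of these 4 lists every 24 h array lay below every 2 h array. The mean log2 level of the adipocyte markers was 8.11 to 8.51 at 24 h, against 9.06 to 9.28 at 2 h and 9.02 to 9.14 at 0 h. That of the Schwann cell markers was 7.23 to 7.52 at 24 h, against 8.15 to 8.21 at 2 h and 8.15 to 8.27 at 0 h. Over the same step the neutrophil and monocyte lists rose by the medians given above, and the summed linear signal of the 18 neutrophil markers was 12930 to 15471 at 24 h, against 2726 to 3159 at 2 h. The part of this rise in leukocyte marker RNA in the lower levels of deeper-tissue genes was not tested. Genes of fat oxidation, which these tissues use, fell in 8 of 10 cases with a median of -0.55, including Ppargc1a, a coactivator of mitochondrial biogenesis, by 1.25. The member that rose was Angptl4, an inhibitor of lipoprotein lipase, by 1.68, and 2 rose without the third 2 h array.

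A list of genes of muscle injury and regeneration was mixed, and not all its members are particular to muscle. Of 15 tested, 5 rose, 5 fell and 5 did not pass, with a median of 0.11. Ankrd1, a stretch-responsive ankyrin repeat protein that keratinocytes and fibroblasts of wounds also express, read 10.01, 10.13 and 10.24 at 24 h, against 7.08, 7.32 and 7.35 at 2 h, and rose by 2.88 (limma adjusted p = 2.79e-12). Mstn, myostatin, fell by 1.46, Fbxo32, the atrophy ubiquitin ligase atrogin-1, by 1.12 and the embryonic myosin gene Myh3 by 1.03. Nppb, the natriuretic peptide BNP best known from heart muscle, read 9.89, 10.08 and 10.39 at 24 h, against 5.78, 5.87 and 5.89 at 2 h, a difference of 4.27 ± 0.10 (SE, limma adjusted p = 5e-18).

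Lists of sebaceous gland, cholesterol, hair follicle, melanocyte and erythroid genes were also read. Of 15 sebaceous gland genes 8 fell and 1 rose, with a median of -0.27. Mc5r, the melanocortin receptor of sebocytes, fell by 1.44. No member rose without the second 24 h array or the third 2 h array. Of 16 cholesterol synthesis and uptake genes 6 fell and 1 rose, with Hmgcs1 and Insig1 each down by 0.42, and none rose without the second 24 h array, the second 2 h array or the third 2 h array. Of 21 hair follicle genes 4 fell and 17 did not pass, with a median of -0.07, so that the 19% that fell were close to the 20.4% over all genes. The deepest fall was in Dlx3, by 0.63, and without the first 24 h array, the first 2 h array or the third 2 h array 2 fell. Of 11 melanocyte markers 1 rose, Ednrb by 0.96, and 1 fell, Mitf by 0.51. A second row of the array for Mitf read 3.66 at 24 h and 3.59 at 2 h, near the bottom of the range, and showed no such fall. Without the second 24 h array 3 melanocyte markers fell. Both erythroid genes tested, Alas2 and Slc4a1, did not pass.

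**Figure D4:**
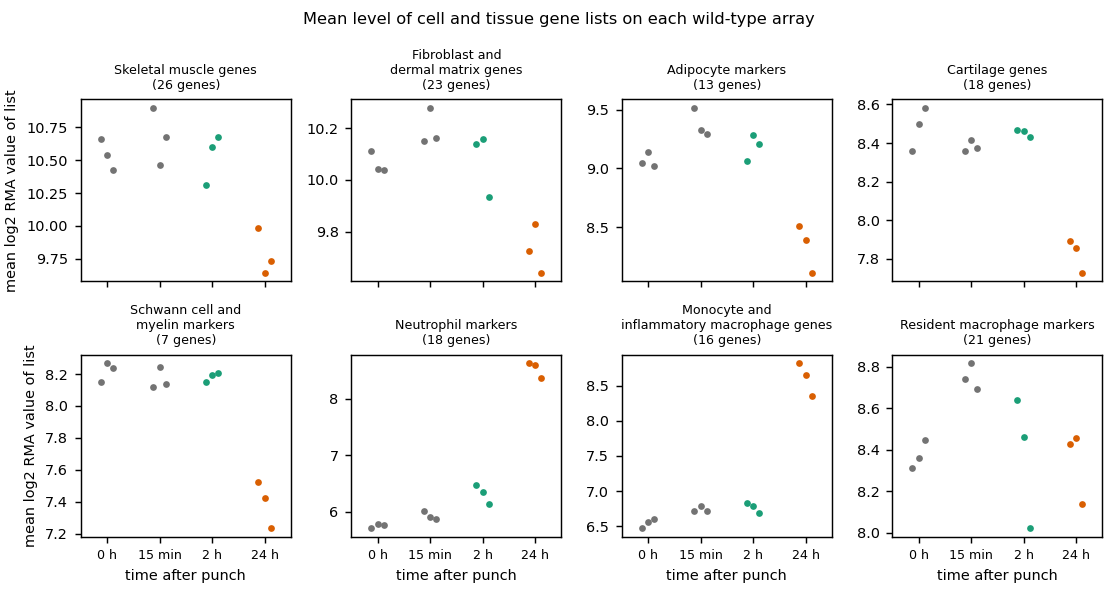
Mean log2 RMA value of 8 gene lists on each wild-type array at 0 h, 15 min, 2 h and 24 h after the punch (3 points a time, one per array; 24 h in orange, 2 h in green). The muscle, dermal matrix, adipocyte, cartilage and Schwann cell lists lie lowest at 24 h, the neutrophil and monocyte lists highest, and the resident macrophage list overlaps between 24 h and 2 h.

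The step from 2 h to 24 h was also read in cub, on separate arrays. In cub 8412 genes passed (42.2%), and 6652 passed in both genotypes with the same sign, which was 80.3% of the wild-type calls and 79.1% of the cub calls, while 13 passed with opposite signs. Across the 19938 genes, which are not independent replicates, the changes in the 2 genotypes correlated with r = 0.926. The difference between the genotypes itself passed for 136 genes (0.682%). Of these, 106 (0.532%) had a more positive change in wild type and 30 (0.15%) a more positive change in cub, a split of 77.9% to wild type that became 61.5% with each array centred on its median and 60% with quantile normalization. This count depended on single arrays and ranged from 40 to 302 when each was left out in turn, lowest without the first 2 h array of cub and highest without its second 24 h array.

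Among genes that rose in both genotypes, some rose less in wild type. Il24 was at 7.30 ± 0.10 at 24 h and 5.27 ± 0.13 at 2 h in wild type, against 9.09 ± 0.28 at 24 h and 5.52 ± 0.18 at 2 h in cub (SD, n = 3 each), so that its change differed by -1.55 ± 0.16 (SE, limma adjusted p = 7.18e-05). Chil3 and Hmga2, a chromatin protein of growing and migrating cells, also rose less in wild type, with differences of -1.55 and -1.37. The changes of Car4, a carbonic anhydrase, and Psg18, a pregnancy-specific glycoprotein, differed by -1.26 and -1.18. In wild type Psg18 averaged 5.48 at 24 h and 4.42 at 2 h, neither shown to be above background. The wild-type 2 h means of Il24, Chil3 and Car4 were also under 6. For Inmt the direction was a deeper fall in wild type, at -2.29 in wild type and -1.12 in cub, but its difference had a limma adjusted p of 0.0483 and the call was lost in 19 of 22 alternative settings, 11 of them with 1 array left out.

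Others changed more positively in wild type. Cdhr1, a photoreceptor cadherin, was at 8.18 ± 0.15 at 24 h and 4.92 ± 0.08 at 2 h in wild type, against 7.30 ± 0.09 at 24 h and 4.91 ± 0.08 at 2 h in cub (SD, n = 3 each), a difference of 0.87 (limma adjusted p = 0.00039). Its 2 h means were under 6 in both genotypes. The NRF2 target Gpx2 rose by 1.59 in wild type and 0.69 in cub, and Aurka by 0.78 in wild type and 0.33 in cub. The limma adjusted p of these differences was 0.0485 for Gpx2 and 0.0463 for Aurka, and the calls were lost in 18 and 17 of 22 alternative settings. Krt15, Mt4 and Sostdc1, a BMP and Wnt antagonist of skin, fell less in wild type than in cub, by 1.53 against 2.50, 2.72 against 3.51 and 0.46 against 1.42. Rhbdf2 had a change of -0.19 in wild type and -0.68 in cub, and that difference did not pass (limma adjusted p = 0.0703).

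**Figure D5:**
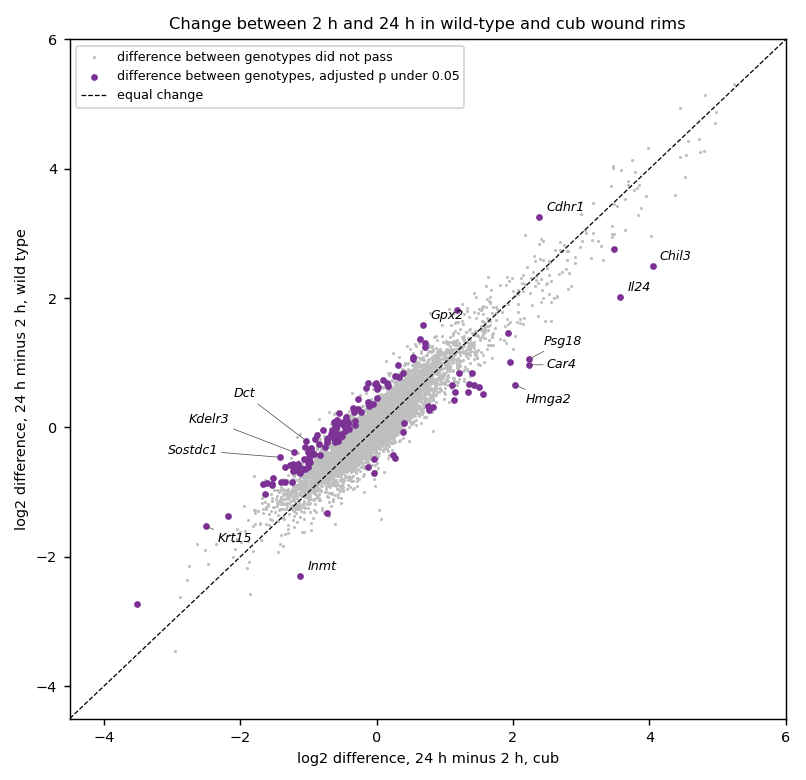
Log2 difference at 24 h minus 2 h of each of 19938 genes in wild type (vertical) against that in cub (horizontal), means of 3 arrays a group. Purple points are the 136 genes whose change differed between the genotypes at an adjusted p of 0.05, the 6 largest in each direction are named, and the dashed line marks equal change.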

How the data were processed

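The authors deposited log2 expression values, summarized by RMA with Affymetrix Expression Console, version 1.1 (per the submitters' processing notes). The summarization level, annotation and build behind these values are not given in the sources used here. Precision is limited by how few arrays a group has. Of 35556 rows, 21789 carried 1 gene symbol, 1621 several and 12146 none; only the first kind was used, with the brightest row for the 999 genes with several, which left 19938 genes.

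Tests used limma 3.58.1 (R 4.3.3) and a fit with 1 mean for each group of all 23 arrays (15 residual and 5.61 prior degrees of freedom). Tests were two-sided with Benjamini-Hochberg adjustment within each comparison. Whether each array is 1 mouse was not stated, so p-values measure the spread between these arrays. Named genes were the 15 largest increases and 15 largest decreases past the threshold without overlap, up to 4 members of each list, the 6 largest differences between genotypes in each direction, and 14 genes given whatever their values. Genes outside this rule are named as chosen after their values were seen, or spell out a count of 5 or fewer. The members, the 45 lists (749 of 808 listed genes tested, 59 not analysed here) and the alternatives were chosen with earlier results of these data known, so lists are described and not tested. Promoter windows came from RefSeq, GRCm38.p6. Arrays were not treated as paired by the replicate numbers in the titles. Deviations of same-numbered arrays at 24 h and 2 h correlated at -0.121, -0.0053 and 0.0374, and those of differently numbered arrays at -0.153 to 0.200. With deviations from means of 3 arrays, these correlations cannot exclude a pairing. On simulated data for 24 h minus 2 h with 19938 genes, 85 of 100 changes of log2 0.5 and 100 of 100 changes of log2 1 were recovered, with 6 false calls among 191. Only these genes were changed there, with independent normal spread on each array, whereas 41.5% passed in the real data. The simulated recovery and false calls therefore do not carry over to the real comparison. Alternatives were other scaling, a filter at a highest group mean of 6, every row, fewer arrays, a replicate block, other moderation, array weights and leaving out each array.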

Additional observations from a re-analysis of the deposited data

Results flagged for a closer look

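For 14 of the genes named by rule the change between 2 h and 24 h differed between wild type and cub by the test of the difference itself, and they are listed as the wild-type change minus the cub change on the log2 scale. It was negative for Il24 (-1.55), Chil3 (-1.55), Hmga2 (-1.37), Car4 (-1.26), Psg18 (-1.18) and Inmt (-1.18). It was positive for Krt15 (0.97), Sostdc1 (0.96), Gpx2 (0.90), Cdhr1 (0.87), Kdelr3 (0.84), Dct (0.83), Mt4 (0.79) and Aurka (0.46). Kdelr3, an ER retrieval receptor, changed by -0.38 in wild type and -1.22 in cub, and the melanocyte enzyme gene Dct by -0.20 in wild type, where it did not pass (limma adjusted p = 0.209) except without the second 24 h array (limma adjusted p = 0.0392), and -1.04 in cub. Over 22 alternative settings, 12 of which left out 1 array, Car4, Cdhr1, Hmga2 and Il24 kept the call in all. Inmt lost it in 19, Gpx2 in 18, Aurka in 17, Dct in 11, Kdelr3 in 8, Sostdc1 in 5, Krt15 and Mt4 in 3 each, Psg18 in 2 and Chil3 in 1. With 1 array left out, Inmt kept the call only without the second 2 h array of cub and Gpx2 only without the first 24 h array of cub. Aurka kept it only without the second 24 h or first 2 h array of wild type or the second 2 h array of cub. Dct lost it in 7 such settings (wild type without the second 24 h, the second 2 h or the third 2 h array, and cub without the first or the third array of either time). Kdelr3 lost it in 4 (wild type without the first 24 h or the third 2 h array, and cub without the first 24 h or first 2 h array), and Sostdc1 in 1, without the first 2 h array of cub. With 3 arrays a group, no array was tested for standing apart.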

How the results depend on the processing

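The count of genes called between 24 h and 2 h in wild type was 8284, and it was 7533 to 7776 with each array left out, 8377 with each array centred on its median, 8638 with quantile normalization, 8105 of the 13741 genes kept by the filter, 10407 of 35556 rows, 7899 with only the arrays compared, 8086 without moderation, 8217 with trend and robust moderation and 8915 with array weights. With the replicate number as a block it was 8172 in all arrays and 7606 in the arrays compared. The cub count of 8412 was 7604 to 8042 with each array left out, and 8285 and 6731 with the block. The count for the difference between the genotypes, 136, moved most. It was 64 over every row, 52 without moderation, 284 with array weights and 19 with only the arrays compared, and with the replicate block 105 in all arrays and 11 in the arrays compared. Leaving out each array gave 40 to 302, and beyond 1.5 times these were 86 without wild-type 24 h replicate 1, 68 and 60 without wild-type 2 h replicates 2 and 3, 77, 302 and 69 without cub 24 h replicates 1, 2 and 3, and 40 and 221 without cub 2 h replicates 1 and 2. Of 198 named genes called, 192 were called in all 16 alternatives run on the wild-type comparison. The others were Hoxc13, Il6, Kdelr3, Lgr5, Mcpt4 and Slc39a4. Of 1440 list counts under the alternatives, 1393 stayed within 1.5 times and 47 moved. These belonged to 20 counts, of which 7 were above 2: endothelial markers higher, and epidermal keratin, hair follicle, hypoxia, Langerhans and dendritic cell, NRF2 target and T cell genes lower. The epidermal keratin count of 7 was 4 with the replicate block in the arrays compared, and the other 6 moved with 1 array left out, as given beside them. The other 13 counts were of 2 members or fewer. Among genes not called, Rhbdf2 and Ngp gained a call in 2 settings each and Dct in 1. Cxcl9 and Arc lost their calls in 10 of the 16, Nfkb2 in 6, Spred1 in 4 and Defb6 in 2.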
